A study of Mus musculus with 6 samples.

Results

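The proteasome genes of 3T3-L1 adipocytes were compared between cells made to express uncoupling protein 1 (UCP1) and cells carrying the Tet-off plasmid alone. Members were taken by name, as every probe that the platform annotation pairs with a single symbol beginning Psm, then a letter from a to g and a digit, and each gene was read on its brightest probe, judged by mean log2 intensity across all 6 arrays. The pattern matched 48 genes on 54 probes, of 18069 genes with such a probe and 36227 probes in all. Psmc3ip, a recombination factor, and Psme3ip1, a protein that binds one of the activators, carry matching names but are not parts of the proteasome, which left 46 members.

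3T3-L1 is a mouse preadipocyte line that differentiates into lipid-filled adipocytes. RNA was taken 10 days after differentiation with an adipogenic cocktail, in 3 samples that carried the Tet-off plasmid and nothing else (control 1 to 3) and 3 that expressed UCP1, the proton carrier of brown fat mitochondria (UCP1 1 to 3). All 6 were hybridised to one-colour CodeLink mouse whole genome arrays. The labels name no promoter, clone or doxycycline state for either line. Nor do they tie the triplicates to separate dishes of cells, so every p-value here is set by array-to-array spread that could be purely technical.

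The proteasome degrades proteins tagged with ubiquitin. Its core particle is a barrel of alpha rings, which gate the entrance, around beta rings, which hold the proteolytic sites, and the regulatory particle that caps it recognises, unfolds and feeds in substrates. Interferon can replace the constitutive catalytic beta subunits with inducible ones, forming the immunoproteasome, and can raise the activator made of Psme1 and Psme2. In many cell types, lost proteasome activity is answered by the transcription factor Nfe2l1, which induces subunit genes together, and in brown fat that factor is known for keeping proteasome capacity up during heat production.

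The labels and the series' depth were checked first. Ucp1 read 0.222, 0.232 and 0.278 on the control arrays and 2.34, 2.02 and 1.54 on the UCP1 arrays, in units of intensity scaled to an array median near 1, so every UCP1 array lay above every control. Array medians lay between 1.04 and 1.05, but the 99th percentile of intensity ran from 255 to 279 on control arrays and from 185 to 225 on UCP1 arrays: the bright end of the scale read lower in UCP1. In limma, which fitted all 36116 testable probes, the median change of all probes was -0.060 on the log2 scale, and that of the 6969 probes between the 10th and 90th percentile of the members' own levels (intensity 6.84 to 144) was -0.14. After quantile normalization, which forces the arrays to one distribution, these medians were 0.018 and 0.014. Adipocyte markers were present, with Adipoq averaging 880 in controls and 818 in UCP1. Of 11 leukocyte markers listed, 9 were measured and their summed intensity was 14.6 to 19.1 in controls and 17.2 to 17.7 in UCP1, with Ptprc, the defining leukocyte marker, at 0.0994 to 0.134 and 0.0554 to 0.179.

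Of the 46 proteasome members 3 fell in UCP1, 0 rose and 43 did not pass (limma, Benjamini-Hochberg over all probes, threshold 0.05). The 3 were Psma1, an alpha subunit of the core, Psmd8, a lid subunit of the regulatory particle, and Psme2, a subunit of the interferon-induced activator. They are to be read against the 2.03% of all tested probes that were called lower and the 0.8% called higher, and against the 5.19% called lower and 1.16% called higher among probes at the members' levels. Fold changes lay below 0 for 39 of the 46 and above 0 for 7, against 56.9% below 0 among all probes and 74.1% among probes at the members' levels. The median change was -0.25 on the log2 scale, with a range from -0.81 to 0.13. In bulk RNA of this kind, fewer cells of a type and less RNA per cell cannot be told apart. In 14 members all 3 UCP1 arrays lay below all 3 controls, and in 0 all lay above, where 14% of all probes and 25.2% of probes at the members' levels were separated in the lower direction and 7.88% and 5.83% in the higher. After quantile normalization the median was -0.034, 26 members lay below 0 and 20 above, and Psma1 alone was called (limma). In that scaling 1.23% of all probes were called lower and 1.57% higher, and 2.9% and 4.22% of probes at the members' levels. After cyclic loess, which rescales by intensity, Psma1 was again the 1 member called, with 1.27% of all probes called lower.

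**Figure D1:**
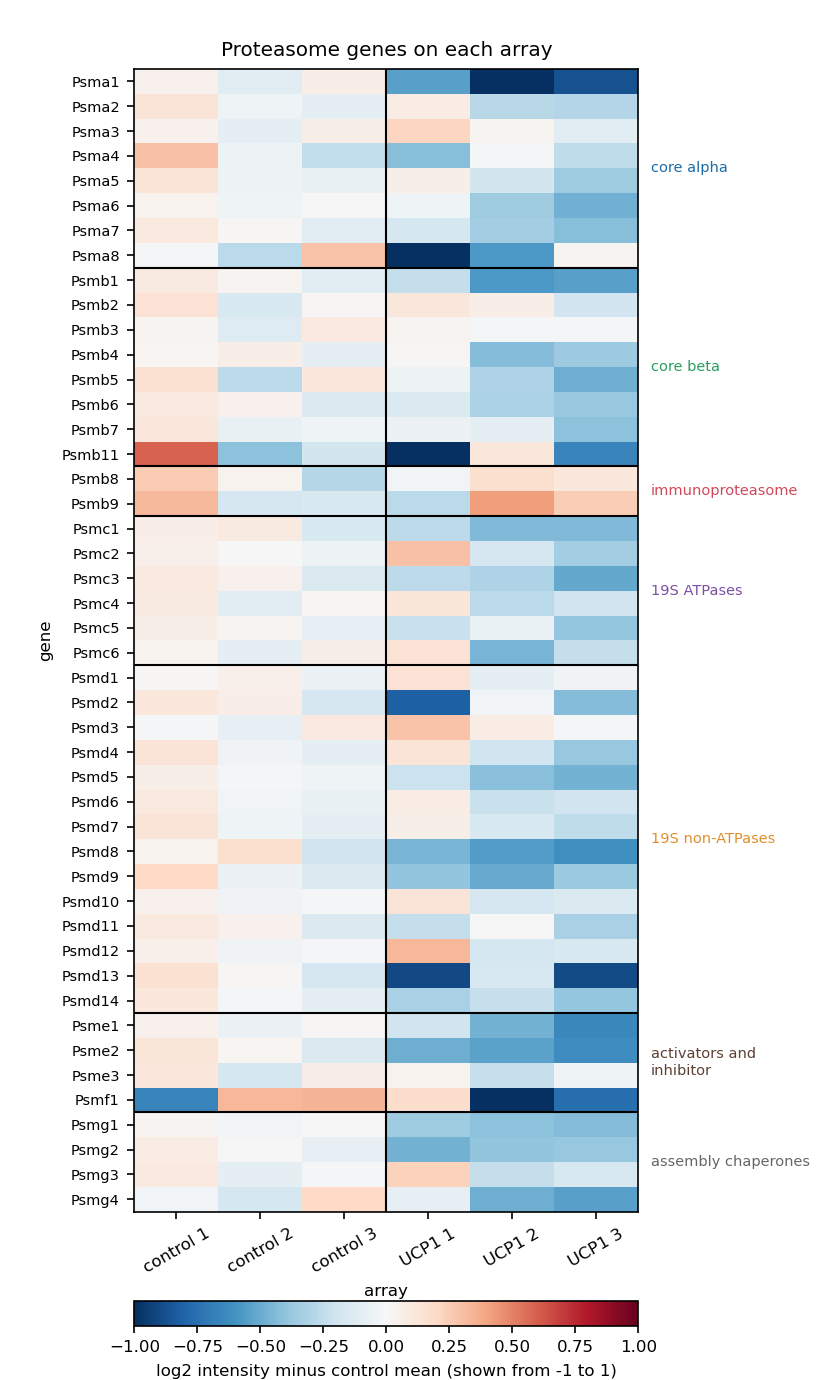
Log2 intensity of each of the 46 proteasome genes (rows, by subgroup) on each of the 6 arrays (columns), minus the mean of the 3 control arrays. Blue is lower and red is higher than the control mean, with colours ending at -1 and 1. UCP1 2 and UCP1 3 are mostly blue, while UCP1 1 is mixed, with 19 of 46 genes above the control mean. Both immunoproteasome rows lie above the control mean on UCP1 2 and UCP1 3. The 7 genes with a change above 0 are these, Psma3, Psmb3, Psmd1, Psmd3 and Psmd12.

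The UCP1 arrays were not alike. Counted gene by gene, 19 of the 46 members lay above their control mean on UCP1 1, 7 on UCP1 2 and 3 on UCP1 3. As a median over members, the deviation from each gene's mean over the 6 arrays was 0.21, 0.042 and 0.045 on the control arrays and 0.020, -0.17 and -0.23 on the UCP1 arrays. Control 1 gave the highest reading of 27 members and UCP1 3 the lowest of 22. Probes at the members' levels deviated by 0.12, 0.028 and 0.068 in controls and 0.11, -0.14 and -0.16 in UCP1, so UCP1 1 lay with the controls there too. After quantile normalization the members' median deviations were 0.036, -0.00070 and -0.041 in controls and -0.027, -0.032 and -0.015 in UCP1. Without UCP1 1, 10 members were called lower, where 4.46% of all probes were, and they included the 3 above (limma). Without UCP1 2 the count was 3, where 4.15% of all probes were called lower, and the 3 were Psme2, Psmd2 and Psmd13. Without control 1, control 2, control 3 or UCP1 3, 0 members were called (limma), and 0.554%, 0.754%, 1.23% and 0.258% of all probes were called lower, with unadjusted p-values under 0.05 at 4391 to 5247 probes. Offsetting the values before log2 or using robust eBayes kept the 3 calls (limma), at 2.58% and 2.61% of all probes called lower. Averaging a gene's probes, or taking the replicate number as a block, kept Psma1 and Psme2, at 1.64% and 1.53%. For the fits with arrays left out and for these alternatives, the share at the members' levels was not taken. In the fit on all 6 arrays 5.19% of probes at those levels were called lower, against 2.03% of all probes (limma).

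Promoter sequences of members were read from RefSeq (GRCm38.p6) in windows of 250 bases before to 50 bases after the annotated start, which were found for 38 of the 46 members. Of the members, 3 had more than 1 window, and a match in any of them was counted. The 3 genes that fell are shown first, with Psme1 as the partner of Psme2, and then the constitutive Psmb5 and Psmb6 and the inducible Psmb8. Psme2 had a second, overlapping window from another annotated start, also with GC boxes, which is not shown. Capitals mark any match, on either strand, to the antioxidant response element core TGACNNNGC bound by Nfe2l1 and Nfe2l2, the interferon-stimulated response element core (GAAA, 2 further bases, GAAA), the GC box GGGCGG, the CCAAT box CCAAT or the ETS core CCGGAAG.
Psma1 (chr7:114276067-114276366, minus strand): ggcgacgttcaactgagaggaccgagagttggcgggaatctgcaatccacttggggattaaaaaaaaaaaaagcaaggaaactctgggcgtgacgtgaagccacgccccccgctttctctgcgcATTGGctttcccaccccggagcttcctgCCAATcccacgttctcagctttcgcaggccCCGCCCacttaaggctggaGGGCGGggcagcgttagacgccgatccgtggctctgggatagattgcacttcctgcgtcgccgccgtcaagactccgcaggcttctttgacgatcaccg
Psmd8 (chr7:29180624-29180923, minus strand): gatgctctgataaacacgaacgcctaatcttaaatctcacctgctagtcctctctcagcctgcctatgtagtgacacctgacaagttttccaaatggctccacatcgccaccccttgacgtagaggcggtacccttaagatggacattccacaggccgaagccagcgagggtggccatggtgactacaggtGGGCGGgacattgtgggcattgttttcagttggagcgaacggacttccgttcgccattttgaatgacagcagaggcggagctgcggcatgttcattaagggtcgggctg
Psme2 (chr14:55590972-55591271, minus strand): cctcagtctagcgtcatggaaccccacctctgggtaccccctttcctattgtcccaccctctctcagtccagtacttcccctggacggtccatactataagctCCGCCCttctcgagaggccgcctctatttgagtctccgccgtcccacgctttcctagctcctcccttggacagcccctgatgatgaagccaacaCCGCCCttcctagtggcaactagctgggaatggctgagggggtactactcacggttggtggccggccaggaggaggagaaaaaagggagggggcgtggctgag
Psme1 (chr14:55578244-55578543, plus strand): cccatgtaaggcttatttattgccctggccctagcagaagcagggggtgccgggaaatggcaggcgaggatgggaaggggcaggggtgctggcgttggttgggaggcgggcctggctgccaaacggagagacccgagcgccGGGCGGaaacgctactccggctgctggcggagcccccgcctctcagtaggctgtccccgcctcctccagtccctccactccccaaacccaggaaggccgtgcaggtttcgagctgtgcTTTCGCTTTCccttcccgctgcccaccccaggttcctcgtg
Psmb5 (chr14:54617946-54618245, minus strand): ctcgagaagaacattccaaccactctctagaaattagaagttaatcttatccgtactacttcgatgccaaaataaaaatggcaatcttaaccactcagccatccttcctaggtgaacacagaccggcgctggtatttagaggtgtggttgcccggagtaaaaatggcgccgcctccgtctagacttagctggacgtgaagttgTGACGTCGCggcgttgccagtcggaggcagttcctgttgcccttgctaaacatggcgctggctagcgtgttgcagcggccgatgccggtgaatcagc
Psmb6 (chr11:70525107-70525406, plus strand): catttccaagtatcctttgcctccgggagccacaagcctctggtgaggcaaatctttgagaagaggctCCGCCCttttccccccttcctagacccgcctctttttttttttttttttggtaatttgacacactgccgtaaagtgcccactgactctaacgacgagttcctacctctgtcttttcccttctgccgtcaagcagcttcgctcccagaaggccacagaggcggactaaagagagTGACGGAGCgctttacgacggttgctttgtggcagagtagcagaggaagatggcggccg
Psmb8 (chr17:34197945-34198244, plus strand): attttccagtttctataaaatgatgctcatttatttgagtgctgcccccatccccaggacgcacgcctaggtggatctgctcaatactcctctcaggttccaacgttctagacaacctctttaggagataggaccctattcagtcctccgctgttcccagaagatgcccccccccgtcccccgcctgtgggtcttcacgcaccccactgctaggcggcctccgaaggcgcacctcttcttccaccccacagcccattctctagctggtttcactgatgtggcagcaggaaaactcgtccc
The antioxidant response element core was found in the windows of 5 of the 38 members (13.2%), Psmb5, Psmb6, Psmc6, Psmd9 and Psmd12, and in 14.0% of all 27025 genes with a window. In Psmb5 it lay 47 to 39 bases before the start (TGACGTCGC) and in Psmb6 9 to 1 bases before it (TGACGGAGC). The interferon element core was also found in 5 members (13.2%, against 3.99% of all genes), among them Psme1, from base 10 to base 19 counted from the start, on the opposite strand. The window of Psmb8 held none of the letters searched. GC boxes were found in 22 members (57.9%, against 38.2%) and included Psma1, Psmd8, Psme1 and Psme2. CCAAT boxes were found in 14 (36.8%, against 41.1%) and ETS cores in 13 (34.2%, against 9.93%). A match is a description of letters and not a bound site. Members with and without a match had median changes of -0.28 and -0.23 for the antioxidant element, -0.37 and -0.23 for the interferon element, -0.26 and -0.21 for the GC box, -0.16 and -0.27 for the CCAAT box and -0.19 and -0.28 for the ETS core, given as a description with no test.

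The alpha subunits form the outer rings and gate of the core. Of 8 measured, 1 fell, 7 lay below 0, and the median change was -0.26 on the log2 scale, or -0.078 after quantile normalization. Here and in the subgroups below, such counts are to be read against the shares over all features. Of all probes 2.03% were called lower and 56.9% lay below 0. Of probes at the members' levels 5.19% were called lower and 74.1% lay below 0, with a median of -0.14. Psma1 read 257, 233 and 262 in controls and 172, 124 and 137 in UCP1. The groups did not overlap, and the mean went from 251 ± 15.9 (SD, n = 3) to 144 ± 25.0 (SD, n = 3), a fall of 1.75-fold (log2 change -0.81 ± 0.175 SE, limma adjusted p = 0.0331). It stood apart from the rest of its ring, whose other ubiquitously expressed members, Psma2 to Psma7, changed by 0.044 to -0.31. Psma3, the least changed alpha subunit, read 213, 192 and 214 in controls and 239, 210 and 191 in UCP1, with overlapping groups. Psma2, Psma4, Psma5 and Psma6 overlapped too, with changes of -0.16 to -0.29, of which those of Psma2 and Psma5 turned positive after quantile normalization and cyclic loess. Psma7 read 62.1, 58.5 and 53.8 against 51.4, 45.7 and 43.2, without overlap but short of the threshold (log2 change -0.31 ± 0.128 SE, limma adjusted p = 0.228). Psma8, the testis form of an alpha subunit, was dim at 0.523 to 0.768 in controls and 0.290 to 0.641 in UCP1, above 23.7% to 44.1% of probes. Its change was -0.55 ± 0.319 (SE, limma adjusted p = 0.424), with overlapping groups.

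Psma1 was the member whose call held under both rescalings. Its change was -0.51 after quantile normalization (limma adjusted p = 0.0467) and -0.56 after cyclic loess (adjusted p = 0.0409), and its adjusted p ranged from 0.00836 to 0.233 over all alternatives, the highest without the intensity trend in eBayes. Its log2 change ranged from -0.94 to -0.70 when arrays were left out in turn, with adjusted p-values from 0.00836 to 0.148 (limma). The call was kept without UCP1 1 and lost without each of the other 5 arrays.

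The beta subunits other than the inducible ones build the inner rings, and the 8 measured were Psmb1 to Psmb7, which are constitutive, and the tissue-restricted Psmb11. Of these 8, 0 passed, 7 lay below 0 and the median was -0.27, which became 0.0096 after quantile normalization and -0.048 after cyclic loess. Psmb1, a structural beta subunit, read 238, 227 and 207 in controls and 190, 151 and 153 in UCP1, a separation without overlap whose log2 change of -0.45 ± 0.168 (SE) did not pass (limma adjusted p = 0.186). Psmb3, also structural, read 102, 91.2 and 107 against 101, 99.2 and 98.8, with overlapping groups and a change of 0.00011 ± 0.137 (SE). Psmb2 and Psmb4 overlapped as well, at -0.0013 and -0.26, and both turned positive after quantile normalization. Psmb11, the thymus-specific catalytic subunit, was near the bottom of the scale at 0.176 to 0.352 and 0.0939 to 0.254, above 2.66% to 29.1% of probes. Its change of -0.62 had an SE of 0.591.

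Among the catalytic subunits, Psmb5 (chymotrypsin-like) read 115, 86.2 and 111 in controls and 99.6, 83.5 and 73.7 in UCP1, with overlap. Psmb6 (caspase-like) read 105, 101 and 88.6 against 88.6, 78.7 and 75.3, where the highest UCP1 array lay just under the lowest control. Psmb7 (trypsin-like) read 98.2, 86.4 and 88.4 against 87.3, 85.5 and 68.5, with overlap. The log2 changes of the 3 were -0.28 ± 0.167, -0.28 ± 0.141 and -0.18 ± 0.146 (SE), none past the threshold (limma adjusted p = 0.442, 0.343 and 0.578). After quantile normalization they were -0.035, -0.025 and 0.060, the last with its sign turned.

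**Figure D2:**
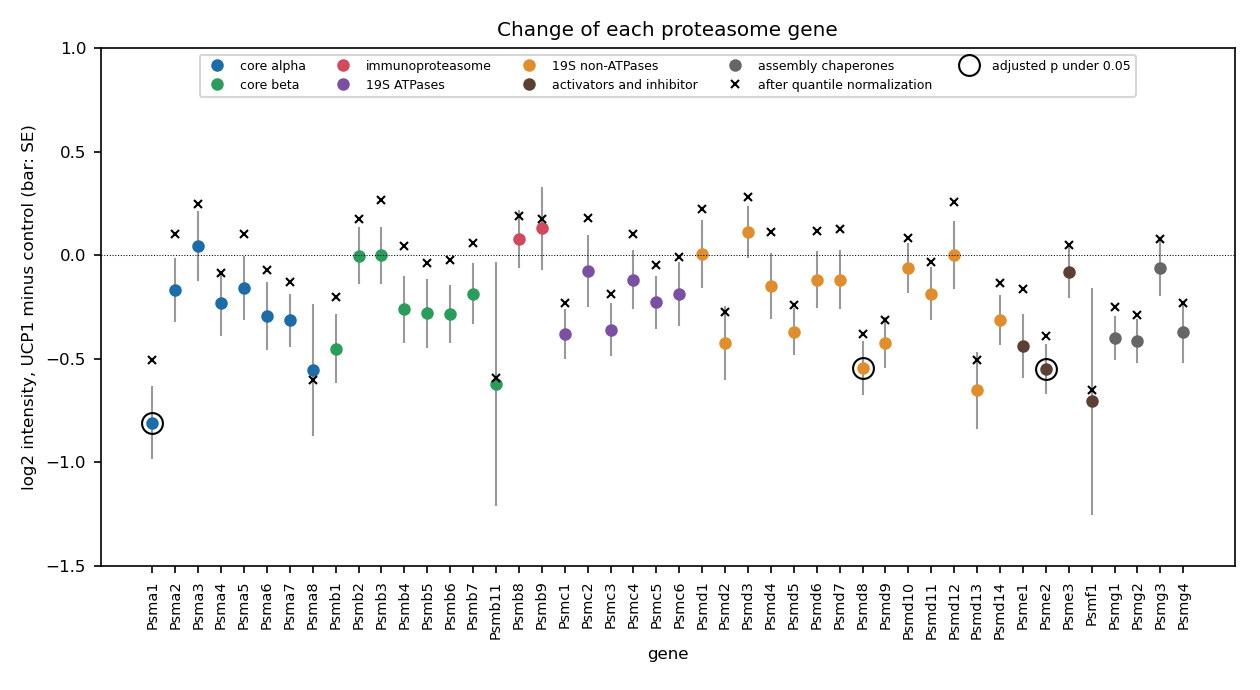
Log2 change of each of the 46 proteasome genes, UCP1 minus control, in the deposited scaling (coloured points, with the SE from limma as bars) and after quantile normalization (crosses). Rings mark Psma1, Psmd8 and Psme2, the 3 genes with an adjusted p under 0.05, and most crosses lie above their points.

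Neither inducible subunit passed, and both lay above 0, as did Psma3, Psmb3, Psmd1, Psmd3 and Psmd12. Psmb8, which replaces Psmb5, read 8.17, 7.03 and 5.62 in controls and 6.73, 7.65 and 7.39 in UCP1, a change of 0.079 ± 0.141 (SE, limma adjusted p = 0.826). Psmb9, which replaces Psmb6, read 2.30, 1.63 and 1.66 against 1.52, 2.45 and 2.18, a change of 0.13 ± 0.201 (SE, limma adjusted p = 0.794). In both genes the groups overlapped, and UCP1 1 was the lowest of the UCP1 arrays. Without control 3 the change of Psmb8 was -0.064, and without UCP1 2 that of Psmb9 was -0.013. Psmb10 had no probe with a single symbol and was not analysed here.

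Whether inducible and constitutive partners changed unequally was tested within arrays. The log2 change of Psmb8 exceeded that of Psmb5 by 0.36 (SD of the within-array ratio 0.354 in controls and 0.298 in UCP1), and that of Psmb9 exceeded that of Psmb6 by 0.41 (SD 0.219 and 0.469). The groups overlapped in both pairs and neither difference passed (exact permutation test, two-sided, p = 0.3 for each, 0.3 after adjustment over the 2 pairs), in a design whose smallest possible p is 0.1, so no unequal change was shown or excluded. In both pairs UCP1 1 lay among the controls, with log2 ratios of 0.023 and -0.13 relative to the control mean, while UCP1 2 and UCP1 3 stood at 0.46 and 0.59 for the first pair and 0.73 and 0.63 for the second. After quantile normalization the differences were 0.23 and 0.20 (exact permutation p = 0.5 and 0.4). The inducible genes read dimmer than their partners, and the median change of all probes dropped with intensity. In bins of 1 log2 unit it was -0.064 at the level of Psmb8 and -0.0033 at that of Psmb9. At the level of Psmb5 and Psmb6 it was -0.21. The part of this shift in the 2 differences was not tested. Over all alternatives, arrays left out included, p ran from 0.2 to 0.6 for the first pair and from 0.1 to 0.6 for the second.

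**Figure D3:**
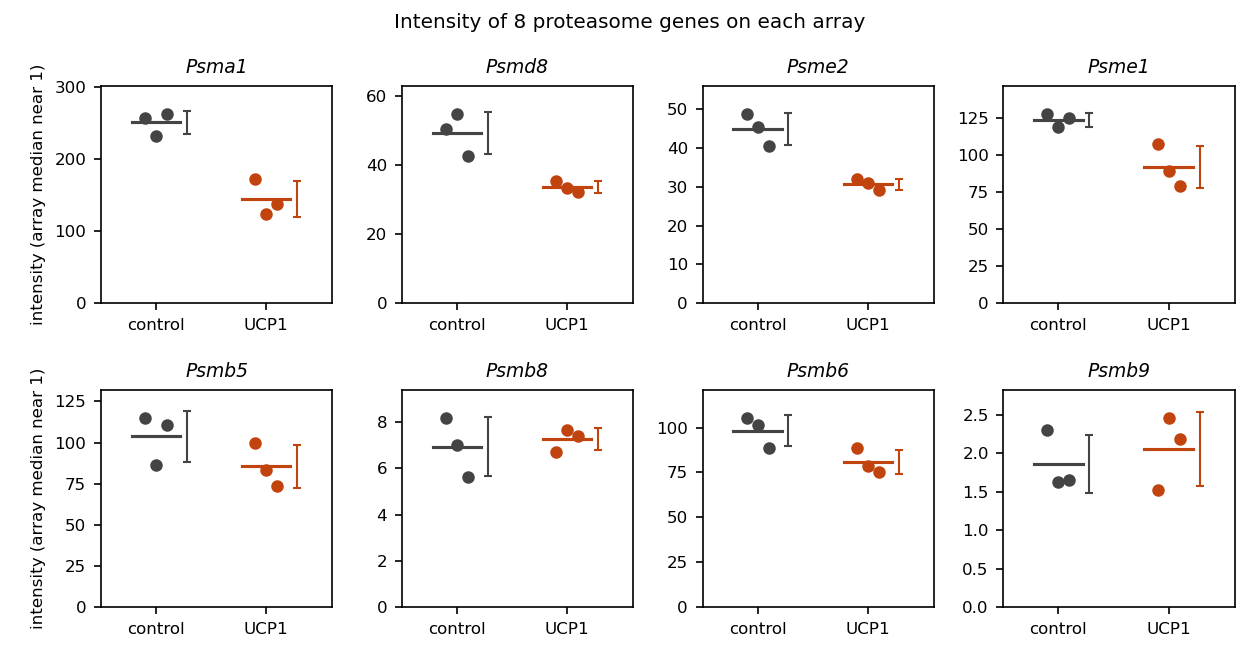
Intensity of 8 proteasome genes on each array, with control arrays in grey and UCP1 arrays in orange, each panel on its own linear axis from 0. Lines are group means and bars are SD (n = 3). The groups are separate in Psma1, Psmd8, Psme2 and Psme1, barely so in Psmb6, and overlap in Psmb5, Psmb8 and Psmb9.

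The regulatory particles, counting caps and activators, had 24 measured members, of which 2 fell and 0 rose. Their median change was -0.21, or -0.040 after quantile normalization, and 8 of the 24 were separated in the lower direction, against 14% of all probes and 25.2% of probes at the members' levels.

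In the base of the cap, the ATPases Psmc1 to Psmc6 form the ring that unfolds substrates. All 6 lay below 0 in the deposited scaling, as did 74.1% of probes at the members' levels. Of the 6, 0 passed (limma, with 2 at an unadjusted p under 0.05), and after quantile normalization 4 lay below 0. Psmc1 read 30.2, 30.8 and 26.0 in controls and 24.1, 21.3 and 21.3 in UCP1, without overlap (log2 change -0.38 ± 0.119 SE, limma adjusted p = 0.114). Psmc3 read 52.6, 50.5 and 44.4 against 41.0, 39.6 and 34.5, also without overlap (-0.36 ± 0.128 SE, limma adjusted p = 0.164). Psmc2 changed least, at 112, 108 and 104 against 132, 95.7 and 84.9, where UCP1 1 was the highest of all arrays and the other two UCP1 arrays the lowest. Its sign turned to 0.18 after quantile normalization. Psmc4, Psmc5 and Psmc6 overlapped between groups, with changes of -0.12 to -0.23, and that of Psmc4 turned positive after both rescalings.

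The non-ATPase subunits of base and lid hold the ubiquitin receptors and the deubiquitinase Psmd14. Of 14 Psmd genes measured, assembly chaperones included, Psmd8 fell, 11 lay below 0 and the median was -0.17 (0.025 after quantile normalization). Psmd8 read 50.2, 54.7 and 42.6 in controls and 35.4, 33.2 and 32.1 in UCP1. Every UCP1 array lay below every control, and the mean went from 49.2 ± 6.09 (SD, n = 3) to 33.5 ± 1.68 (SD, n = 3), a fall of 1.46-fold (log2 change -0.55 ± 0.129 SE, limma adjusted p = 0.0470). The call was lost after quantile normalization, at -0.38 (limma adjusted p = 0.106), with a range over alternatives of 0.0210 to 0.276, and with any 1 array other than UCP1 1 left out.

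Psmd13, another lid subunit, had the largest non-ATPase change at -0.65 ± 0.184 (SE) but did not pass (limma adjusted p = 0.0832). It read 29.0, 26.3 and 23.3 in controls and 14.0, 23.3 and 14.0 in UCP1, so that UCP1 2 sat at the lowest control and the other two UCP1 arrays below all controls. Psmd2, a scaffold of the base, was split the same way, at 36.0, 35.0 and 29.7 against 19.04, 32.8 and 24.8. Psmd12, the least changed, read 98.7, 92.8 and 94.3 against 120, 84.2 and 85.6, with UCP1 1 above all controls and the other two below all of them. Psmd1, the other large base scaffold, read 215, 221 and 205 against 236, 201 and 208, and Psmd3, a lid subunit, was highest on UCP1 1 at 46.3, with controls at 37.6, 35.9 and 40.6. Psmd4, Psmd6, Psmd7, Psmd10 and Psmd11 overlapped between groups, with changes of -0.062 to -0.19, and all but Psmd11 of these turned positive after both rescalings. The deubiquitinase Psmd14 read 60.2, 55.7 and 52.5 against 44.8, 47.9 and 42.9, without overlap and without passing (-0.31 ± 0.122 SE, limma adjusted p = 0.210).

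Psmd5, Psmd9 and Psmd10 are chaperones that help the base assemble and leave before it is complete. Psmd10 overlapped between groups, as given above, with a change of -0.062. Psmd5 read 20.6, 19.6 and 19.2 in controls and 17.1, 14.8 and 14.3 in UCP1, and Psmd9 read 8.83, 7.36 and 6.94 against 5.84, 5.41 and 5.93. Both were separated without overlap and neither passed (log2 changes -0.37 ± 0.113 and -0.42 ± 0.122 SE, limma adjusted p = 0.107 and 0.0904). The chaperones of the core, Psmg1 to Psmg4, pair up to guide assembly of the alpha ring. All 4 lay below 0, against 74.1% of probes at the members' levels. Their median of -0.39 was -0.24 after quantile normalization, where Psmg3 turned positive. Psmg1 read 28.4, 27.4 and 27.8 against 21.8, 20.9 and 20.6, and its partner Psmg2 read 17.5, 16.7 and 15.7 against 11.998, 12.7 and 12.8. Both were separated without overlap, at -0.40 ± 0.106 and -0.42 ± 0.106 (SE), and neither passed (limma adjusted p = 0.0678 and 0.0612). Psmg3 read 21.2, 18.6 and 19.7 against 23.2, 16.7 and 17.7, and Psmg4 read 32.7, 29.5 and 38.3 against 31.5, 23.7 and 22.9, both with overlap. When limma was run on the brighter part of the probes alone, Psmg1, Psmg2, Psmd9 and Psmd13 joined the 3 called members, where 9.5% of the probes tested were called lower.

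The activators cap the core in place of the ATPase-driven particle. Psme2 read 48.7, 45.4 and 40.5 in controls and 31.9, 30.9 and 29.1 in UCP1. The groups lay well apart, and the mean went from 44.9 ± 4.16 (SD, n = 3) to 30.6 ± 1.41 (SD, n = 3), a fall of 1.46-fold (log2 change -0.55 ± 0.121 SE, limma adjusted p = 0.0357). After quantile normalization the change was -0.39 and no longer passed (limma adjusted p = 0.0625, with a range over alternatives of 0.0169 to 0.254). The call was kept without UCP1 1 or UCP1 2 and lost without each of the other 4 arrays. Psme1, its partner in the same heteromeric ring, read 128, 119 and 125 against 108, 89.4 and 79.4, also without overlap, and did not pass (-0.44 ± 0.153 SE, limma adjusted p = 0.156). A second, dim Psme1 probe gave -0.017. Psme3, the nuclear activator, read 19.4, 15.9 and 18.8 against 18.4, 15.3 and 17.5, with overlap and a change of -0.081 ± 0.123 (SE). Psmf1, a proteasome inhibitor, was read on a dim probe at 0.189, 0.378 and 0.381 against 0.341, 0.103 and 0.179, above 3.32% to 30.9% of probes. Its change was -0.71 ± 0.548 (SE, limma adjusted p = 0.570), with overlap. Psme4 was not analysed here.

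**Figure D4:**
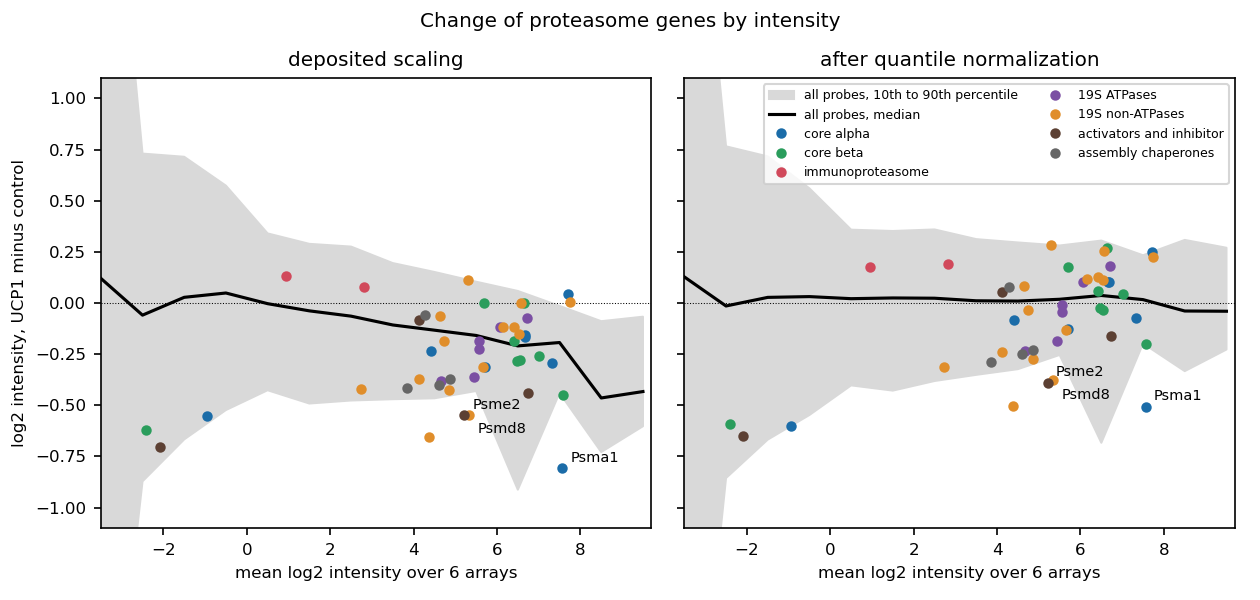
Log2 change, UCP1 minus control, against mean log2 intensity for the 46 proteasome genes (points, by subgroup), in the deposited scaling (left) and after quantile normalization (right). The black line is the median and the grey band the 10th to 90th percentile of all probes in bins of 1 log2 unit. The median of all probes drops with intensity on the left, from -0.11 in the bin starting at 3 to -0.21 in the bin starting at 6, and lies at 0.011 and 0.037 in those bins on the right.

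Several members had more than 1 probe. Both Psmb4 probes lay below 0, at -0.26 and -0.17, and so did both Psmc4 probes, at -0.12 and -0.62. The 3 probes of Psmd11 gave -0.19, -0.24 and 0.34, and the other Psmd12 probe, at 1.18 to 1.54 in controls and 1.58 to 1.67 in UCP1, gave 0.30 against 0.0014 on the brighter one. The second probes of Psmc4, Psmd11, Psmd12 and Psme1 were dim, and no probe of these or of Psmb4 passed.

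Genes that work with the proteasome but lie outside the naming pattern were read beside it. Of 18 listed partners, 13 were measured and 0 passed (limma, with 1 at an unadjusted p under 0.05). Their median was -0.17 and 12 lay below 0, against 56.9% of all probes and 74.1% of probes at the members' levels. Sem1, a small lid subunit, read 253, 281 and 266 in controls and 245, 172 and 198 in UCP1, without overlap (-0.39 ± 0.184 SE, limma adjusted p = 0.303). Pomp, which completes core assembly, read 131, 129 and 117 against 130, 118 and 108, and its change of -0.086 turned to 0.21 after quantile normalization. The ubiquitin receptor relative Ubqln4, dim at 0.984 to 1.70 and 0.605 to 1.20, had the smallest p of the list (-0.69 ± 0.291 SE, limma adjusted p = 0.249).

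Of 14 genes of proteasome transcription control, all 14 were measured and 0 passed (limma; 3 had an unadjusted p under 0.05), with a median of -0.25. Nfe2l1 read 3.54, 3.11 and 3.31 in controls and 2.93, 2.81 and 2.64 in UCP1, separated without overlap (-0.25 ± 0.123 SE, limma adjusted p = 0.341). Nfe2l2, its relative in the oxidative stress response, read 35.5, 32.9 and 32.9 against 29.2, 32.0 and 26.6, also just separated (-0.21 ± 0.118 SE, limma adjusted p = 0.417). Derl1 and Sel1l, both of the machinery that draws Nfe2l1 and other proteins out of the endoplasmic reticulum, had the smallest p of the list, at -0.48 ± 0.137 and -0.39 ± 0.120 (SE, limma adjusted p = 0.0859 and 0.104). In 7 of the 14 the UCP1 arrays all lay below the controls, against 14% of all probes and 25.2% of probes at the proteasome members' levels. In 1, Maff, they all lay above, against 7.88% and 5.83%. Maff and, of the 7, Nfe2l1 and Foxo3 were dimmer than those levels (6.84 to 144). Foxo3 read only 0.164 to 0.348 in controls and 0.103 to 0.143 in UCP1. After quantile normalization the list's median was -0.12.

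Of 21 genes of ubiquitin supply and conjugation, 15 were measured and 0 passed (limma; 2 had an unadjusted p under 0.05), with a median of -0.090. The conjugating enzymes Ube2d3 and Ube2d1 led, at -0.35 ± 0.120 and -0.31 ± 0.136 (SE, limma adjusted p = 0.155 and 0.276). Ubb and Adrm1 were not analysed here.

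Interferon and antigen presentation genes went both ways. The list holds inducers and partners of the immunoproteasome and other interferon-induced genes. Of 22 listed, 19 were measured and 0 passed (limma, with 2 lower and 2 higher at an unadjusted p under 0.05). The median was -0.11 and 11 lay below 0, against 56.9% of all probes. Oas2, an interferon-induced RNA sensor, read 2.21, 1.47 and 1.36 in controls and 2.47, 3.75 and 2.67 in UCP1, higher without overlap and just short of the threshold (0.83 ± 0.208 SE, limma adjusted p = 0.0586). Calr, a chaperone of antigen loading, read 22.03, 18.3 and 20.6 against 15.99, 17.1 and 14.1 (-0.37 ± 0.121 SE, limma adjusted p = 0.132). Irf1, which drives the inducible subunits, read 15.2, 13.5 and 15.96 against 14.1, 14.2 and 13.0, and Tap1, the peptide transporter next to Psmb9 in the genome, read 1.17, 0.769 and 0.649 against 0.289, 1.30 and 0.818. Both overlapped between groups. Marker calls are to be read against the 2.03% of all probes called lower and the 0.8% called higher (limma). Of 12 adipocyte markers 10 were measured, of which Lep rose and Slc2a4 fell (log2 changes 1.04 and -0.74). Of the 10, 8 lay below 0 as deposited and 2 after quantile normalization. Their summed intensity was 3425 to 3931 in controls and 2821 to 3892 in UCP1. The sum of 2821 was on UCP1 3, where the highest reading of any probe was 683, against 921 to 950 on the other arrays. Of 8 preadipocyte and fibroblast markers, all measured, 4 lay below 0, down to -0.43, and 4 above. Among the latter Thy1 and Pdgfra rose (0.80 and 0.67), and the sums over the list were 1043 to 1240 and 940 to 1244. With arrays left out in turn, the calls of Lep, Slc2a4, Thy1 and Pdgfra held in 5, 4, 3 and 2 of 6 fits (limma). Of the measured lymphocyte (4), endothelial (5) and skeletal muscle (5) markers 0 passed (limma; 1 muscle marker had an unadjusted p under 0.05). The part of these markers in the proteasome readings was not tested. Of the 9 measured leukocyte markers 6 lay below 0 and 3 above, with a median of -0.14, and only Lyz2 was called (limma). Lyz2, the macrophage lysozyme, rose from 1.08 ± 0.256 to 3.04 ± 0.822 (SD, n = 3, limma adjusted p = 0.00571). The part of leukocytes in the readings of Psmb8, Psmb9 and Oas2 was not tested.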

How the data were processed

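The values are the intensities the authors deposited in the series matrix, on a linear scale, with array medians near 1; reading, background correction and scaling of the scans: not given in the sources used here. A missing-value code was treated as no value. Before log2, values at or below 0 were replaced by the lowest positive reading on that array. Of 36227 probes, 36116 had at least 2 values per group and were tested; 21615 probes had 1 gene symbol, 681 several and 13931 none in the platform annotation, and only the first kind was named. RefSeq (GRCm38.p6) gave 21487 of the symbols a match with 0 changed, and was used for names, gene order and promoter windows.

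Testing of 3 UCP1 against 3 control arrays used limma 3.58.1 under R 4.3.3 (two-sided; lmFit, then eBayes with its trend option; Benjamini-Hochberg over all tested probes, threshold 0.05). The number of arrays limits the precision. Simulated arrays of 36062 probes were made from the levels and spreads of this comparison, with independent noise and changes placed only in probes at or above the median level. The fit recovered 14% of 100 probes given a log2 change of 0.5, 86% of 50 given 1 and 100% of 50 given 2. There were 12 false calls among 119. Recovery for dim members, or under shifts shared by the probes of an array, was not simulated.

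The members, gene lists, promoter motifs and rules were chosen with earlier results of these data known. Genes chosen by rule, most of them given with every array, were the called members, the catalytic subunits, activators and inhibitor. In each subgroup the 2 members with the largest and the 1 with the smallest absolute change were added. From each partner list came the called genes or the 2 with the smallest p, and Nfe2l1, Nfe2l2, Pomp, Irf1, Tap1 and Ucp1. Of these, Psma8, Psmb11 and Ubqln4 were given as ranges, and Derl1, Sel1l, Ube2d3 and Ube2d1 by their changes without array readings. Others (Psma7, Psmd1, Psmd2, Psmd3, Psmd5, Psmd9, Psmd14, Psmg4) were chosen after their values were seen, and so was the removal of Psme3ip1. Alternatives were an offset of 0.125 before log2 (the 5th percentile of positive values), quantile and cyclic loess normalization, brighter probes, probes with all values, eBayes without the trend or robust, a replicate block, arrays left out in turn, and the mean over a gene's probes.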

Additional observations from a re-analysis of the deposited data

How the results depend on the processing

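The count of called members was 1 with quantile normalization and 1 with cyclic loess (Psma1 both times), 7 on the brighter probes alone and 0 without the eBayes trend, where 0 probes passed at all (limma; 4951 had an unadjusted p under 0.05); it ranged from 0 to 10 when arrays were left out. The count of all called probes, 1021, was 2239 on the brighter probes and ranged from 159 to 1894 when arrays were left out. Quantile normalization gave medians of -0.034 over all members, -0.078 for alpha, 0.0096 for beta (a turned sign) and -0.040 for regulatory particles, and cyclic loess gave -0.050, -0.075, -0.048 and -0.044. With arrays left out these medians ranged from -0.28 to -0.19, -0.32 to -0.18, -0.31 to -0.19 and -0.28 to -0.15, and the immunoproteasome's from -0.0043 (without control 3, a turned sign) to 0.25. The unequal change of Psmb8 and Psmb5 ranged from 0.16 to 0.53 and that of Psmb9 and Psmb6 from 0.25 to 0.68.

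Of the 46 members 13 changed sign after quantile normalization and 12 of these after cyclic loess too (all but Psmb4). Among the genes given with every array, signs turned under both for Psmb7 (0.060 and 0.024), Psme3 (0.052 and 0.044), Psmc2 (0.18 and 0.15), Psmg3 (0.077 and 0.070), Pomp (0.21 and 0.14) and Irf1 (0.020 and 0.0021), and the other members were Psma2, Psma5, Psmb2, Psmc4, Psmd4, Psmd6, Psmd7 and Psmd10. Signs also turned with arrays left out: over those fits Psma3 ranged from -0.042 to 0.12, Psmb3 from -0.065 to 0.050, Psmd12 from -0.17 to 0.091, Psmb8 from -0.064 to 0.20, Psmb9 from -0.013 to 0.33, Psmg3 from -0.20 to 0.032, Psmc2 from -0.26 to 0.061, Tap1 from -0.78 to 0.30 and Cdh5, an endothelial marker, from -1.23 to 0.055. The cause of these shifts was not tested. With the replicate number as a block 776 probes and 2 members, Psma1 and Psme2, were called and Psmd8 was not (limma adjusted p = 0.0594). Deviations of same-numbered arrays correlated at -0.24, -0.0071 and 0.10, so the numbers were not taken to pair arrays. The offset, robust eBayes and probes with all values gave the same 3 called members. Using all 52 probes of the members, a choice made after seeing the data, gave 3, and including Psmc3ip and Psme3ip1 gave a median of -0.25.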

Other observations

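The gene next to a called member was read for context, a check chosen after the values were seen. Psma1 lies on mouse chromosome 7 with Rras2 and Copb1 on one side and Pde3b on the other, in the gene order of GRCm38.p6. Rras2, a small GTPase of the Ras family, went from a mean intensity of 26.2 in controls to 17.8 in UCP1 (log2 change -0.57 ± 0.125 SE, limma adjusted p = 0.0348). Copb1, a coat protein of Golgi vesicles, went from 30.1 to 22.3 (-0.44 ± 0.113 SE, limma adjusted p = 0.0646). Pde3b, the phosphodiesterase that curbs lipolysis under insulin, went from 2.57 to 1.62 (-0.66 ± 0.139 SE, limma adjusted p = 0.0289). In all 3 neighbours, as in Psma1, every UCP1 array lay below every control. That held for 14% of all probes and 25.2% of probes at the proteasome members' levels (6.84 to 144), a range that Pde3b lies below. After quantile normalization Rras2 (-0.43, adjusted p = 0.0349) and Pde3b (-0.62, adjusted p = 0.0324) passed and Copb1 (-0.29, adjusted p = 0.106) did not (limma). Beyond them, Spon1 at 0.24 and Cyp2r1 at 0.073 did not pass, and neither did Btbd10 at -0.069 or Far1 at -0.15. The groups overlapped in these, and also in Pth, Calcb, Insc and Sox6, the other genes measured within 6 places of Psma1. Whether the drop of the nearest genes is more than the background share was not tested.

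The nearest measured neighbours of Psmd8, Ggn at 0.093 and Catsperg1 at -0.13, and of Psme2, Emc9 at -0.32 and Rnf31 at -0.25, did not pass (limma adjusted p = 0.758, 0.711, 0.297 and 0.331). Psme2 and Psme1 lie with Emc9 between them on chromosome 14. The names Psmc3ip and Psme3ip1, which match the pattern without naming a proteasome part, had changes of -0.13 ± 0.121 and -0.53 ± 0.186 (SE) and did not pass (limma adjusted p = 0.635 and 0.161).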
